A study of Mus musculus with 13 samples.

Results

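The genes described here are 10 components of the Notch pathway: the receptors Notch1, Notch2 and Notch3, the ligands Jag1, Jag2 and Dll1, and the transcription factors Hes1, Hes5, Hey1 and Hey2. They were taken by name from the table of estimated counts, which lists 48795 genes, and all 10 were found. RNA was sequenced from right hemispheres, freed of olfactory bulb and cerebellum, of mice at postnatal day 11. The 5 nlsYAP5SA mice (NexCre +/- YAP5SAnls +/-) carried a transgene for a nuclear YAP1 that cannot be phosphorylated, behind a floxed STOP cassette, together with Cre. The 5 control littermates (NexCre -/- YAP5SAnls +/-) carried the transgene without Cre, and 3 C57BL/6 mice (WT) of the same age carried neither allele. The strain background of all 13 mice is given as C57BL/6J. In nlsYAP5SA mice the transgene is switched on by NEX-Cre in the NEX/NeuroD6 lineage alone, so a hemisphere mixes recombined cells with many others. In such bulk RNA, fewer cells of a type and less RNA per cell cannot be told apart.

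Notch signalling passes between touching cells. A ligand of the Jagged or Delta family on a cell binds a Notch receptor on its neighbour, the receptor is cleaved, and its intracellular part enters the nucleus, where it joins the DNA-binding protein RBPJ and switches on genes of the HES and HEY families. In the developing brain the HES factors repress proneural genes and hold back neuronal differentiation, and they are known for maintaining radial glia. Notch1 and Notch2 are found in neural progenitors and glia, Notch3 also in the mural cells of vessels, and Hey1 and Hey2 are known from vessels as well as from neural cells.

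Because RBPJ connects receptors and targets, the stretch around the start of transcription was searched for the core of its binding motif, TGGGAA or its reverse complement TTCCCA, and for the core of the motif of TEAD, the DNA-binding partner of YAP1, GGAATG or CATTCC. The windows were taken from RefSeq on GRCm38.p6 and ran from 250 bases before to 25 bases after a start. Both strands were searched, and a match to each core can share letters with a match to the other. Of 32851 promoters in the table, 23.5% held the RBPJ core and 13.7% the TEAD core. A window was present for 8 of the 10 genes. Among them Hes5 and Hey2 held the RBPJ core, and Notch1 and Hey2 held the TEAD core. The windows of Hes5 and Hey2 are shown because these are the target genes with matches, followed by that of Rbpj, the gene of the DNA-binding partner, whose level differed between nlsYAP5SA and control mice. Of the 5 pathway genes called in that comparison, Rbpj alone held the RBPJ core, and the windows of Dll4, Neurl1b, Dtx3l and Nrarp held neither core. The table has 2 windows for Rbpj, and the first is shown. They read 5′ to 3′ on the strand of the gene, with matches to the RBPJ core in capitals.
Hes5: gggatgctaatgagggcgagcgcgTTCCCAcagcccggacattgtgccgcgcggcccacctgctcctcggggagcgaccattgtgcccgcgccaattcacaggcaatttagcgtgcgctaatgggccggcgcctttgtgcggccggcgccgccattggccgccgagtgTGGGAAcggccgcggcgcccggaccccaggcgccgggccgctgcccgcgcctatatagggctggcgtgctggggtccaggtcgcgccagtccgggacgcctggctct
Hey2: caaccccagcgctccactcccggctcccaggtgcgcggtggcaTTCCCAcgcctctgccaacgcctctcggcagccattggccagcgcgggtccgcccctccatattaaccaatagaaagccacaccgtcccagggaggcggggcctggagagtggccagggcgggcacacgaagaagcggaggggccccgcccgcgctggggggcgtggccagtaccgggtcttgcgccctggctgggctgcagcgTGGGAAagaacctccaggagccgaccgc
Rbpj: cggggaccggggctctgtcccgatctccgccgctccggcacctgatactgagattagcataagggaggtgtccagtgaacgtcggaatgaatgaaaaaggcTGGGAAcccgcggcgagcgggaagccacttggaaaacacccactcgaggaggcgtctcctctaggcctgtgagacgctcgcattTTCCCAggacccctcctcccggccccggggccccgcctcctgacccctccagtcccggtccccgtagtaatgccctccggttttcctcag
In Hes5 (chr4:154960673-154960947, plus strand) the matches begin at positions -226 and -82 relative to the start. In Hey2 (chr10:30842759-30843033, minus strand) they begin at -207 and -3, and a match to the TEAD core on the opposite strand begins at -209 and shares letters with the match at -207. In Rbpj (chr5:53590096-53590370, plus strand) they begin at -149 and -65, and a match to the TEAD core begins at -167. The other Rbpj window (chr5:53590236-53590510) holds an RBPJ match that begins at -205 from its own start, and no TEAD match. These matches describe letters in a window and were not tested as binding sites. Hes1 and Hey1 have no window in the table.

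Estimated counts summed to between 20871566 and 25524349 in a library (at least 21380744 in control and 21541836 in C57BL/6 mice). The 10 genes had between 95 and 1019 counts in a library. Levels are given as CPM (counts of a gene relative to the size of the library, scaled by TMM), and differences as log2 fold changes from edgeR's quasi-likelihood test, fitted over all genes that passed a filter on low counts and called where the p adjusted by Benjamini-Hochberg was at most 0.05. As a check of the labels, the YAP1 target genes Ctgf, Cyr61, Ankrd1 and Amotl2 were 2.69-, 5.56-, 35.2- and 2.95-fold higher in nlsYAP5SA than in control mice, with no overlap between the groups, and Yap1 itself was 1.17-fold higher (adjusted p = 0.0361), a call that held under 6 of 22 alternatives, while those of the target genes held under all that were run. Markers of astrocytes and excitatory neurons, expected in a forebrain hemisphere, were above 0 in the libraries, with summed levels between 3515 and 7604 CPM and between 2136 and 3093 CPM. Libraries differed in their Y-linked genes: the summed level of Ddx3y, Eif2s3y, Kdm5d and Uty was above 10 CPM in all 5 control mice, in 2 of 5 nlsYAP5SA mice (replicates 3 and 4) and in 2 of 3 C57BL/6 mice (replicates 1 and 3). The labels give no sex. Xist stood at 0.126 to 0.470 CPM in control, 0.0867 to 577.8 CPM in nlsYAP5SA and 0.314 to 269.8 CPM in C57BL/6 mice. Y-linked and Xist levels are thus partly confounded with genotype. No pair of replicates was alike within counting noise, with a chi-square of 6.38 or more for each degree of freedom.

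Compared per length of exon, the HES/HEY factors spanned the whole range of levels. In control mice Hey1 was highest at 12.5 ± 0.554 CPM per kb (SD, n = 5), followed by Hes5 at 7.48 ± 1.18 CPM per kb. Notch3 had a level of 3.58 ± 0.468 CPM per kb, Hes1 of 3.19 ± 0.202, Jag2 of 2.98 ± 0.209, Notch1 of 2.23 ± 0.340 and Notch2 of 1.92 ± 0.367 CPM per kb. Dll1 (1.39 ± 0.0965 CPM per kb), Jag1 (1.35 ± 0.307 CPM per kb) and Hey2 (1.02 ± 0.0889 CPM per kb) were lowest. The ranges over the 5 control mice overlapped between Notch3 and Hes1, Hes1 and Jag2, Notch1 and Notch2, Dll1 and Jag1, and Jag1 and Hey2, so the order of these neighbours was not clear from their ranges. Within a library, Notch1 was above Notch2 in all 5 control mice. Hey1 and Hes5, Hes5 and Notch3, Jag2 and Notch1, and Notch2 and Dll1 had ranges apart from each other.

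**Figure D1:**
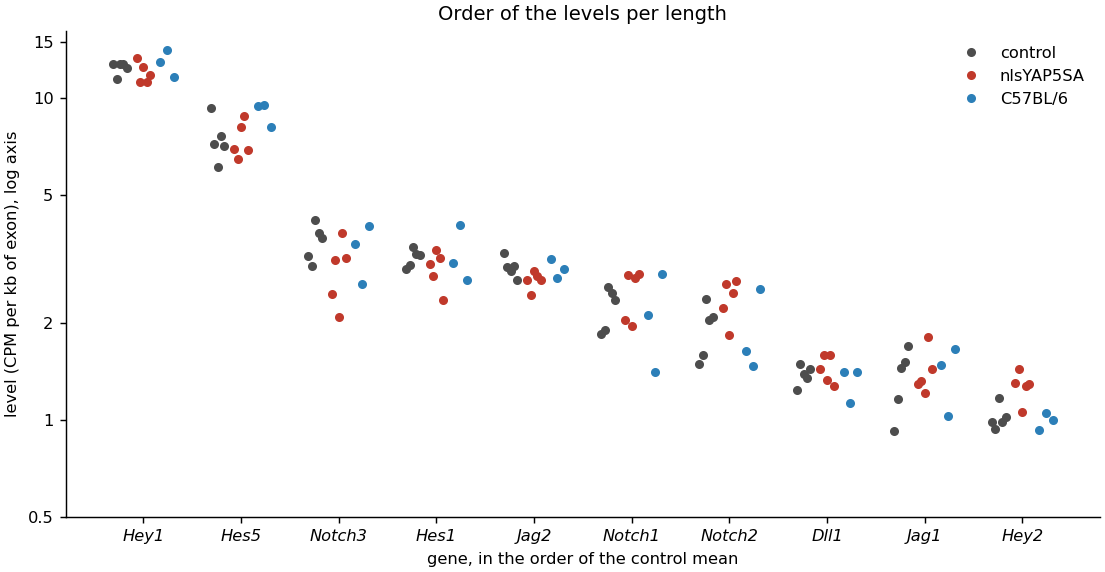
Level of each gene in CPM per kb of exon on a log axis, with a point for each library of control (grey), nlsYAP5SA (red) and C57BL/6 mice (blue). Genes are in the order of the control mean, which falls from 12.5 for Hey1 to 1.02 for Hey2.

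The main comparison asked whether components of the pathway differ at the mRNA level in brains with active YAP1. None of the 10 genes was called in nlsYAP5SA against control mice, where 10.8% of the 16315 genes tested were called (1761 genes). At an unadjusted p of 0.05 or less stood 2 of the 10 (Notch2 and Hey2), against 24.4% of all genes, and DESeq2 also called 0 of the 10. The control and nlsYAP5SA ranges overlapped for every member, whereas 10.1% of all genes had groups that did not overlap. The fitted changes lay between -0.29 and 0.32 on the log2 scale, 5 above and 5 below 0, with a median of 0.027, beside a median of -0.005 over all genes.

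Among the receptors, which receive the signal, Notch1 (chromosome 2, 26457903 to 26516663, minus strand) was measured at 26.3, 27.0, 36.8, 35.4 and 33.5 CPM in control mice 1 to 5. In nlsYAP5SA mice 1 to 5 it stood at 29.1, 40.1, 28.0, 39.4 and 40.6 CPM, and in C57BL/6 mice at 30.1, 20.1 and 40.3 CPM. Each group held low and high libraries, and the ranges overlapped. The fitted difference between nlsYAP5SA and control mice was 0.16 (95% interval -0.13 to 0.44, adjusted p = 0.506).

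Notch2 (chromosome 3, 98013527 to 98150361, plus strand) stood at 16.1, 17.2, 25.6, 22.1 and 22.5 CPM in control mice and at 23.96, 28.4, 19.8, 26.7 and 29.2 CPM in nlsYAP5SA mice. In C57BL/6 mice it was measured at 17.7, 15.8 and 27.6 CPM. Of the nlsYAP5SA mice, 3 were above the highest control, while replicates 1 and 3 lay within the control range. The fitted level was 1.24-fold that of the controls (log2 0.31, 95% interval 0.016 to 0.60, adjusted p = 0.181). With each library corrected for GC content and transcript length, the difference was 0.28 and Notch2 was called (adjusted p = 0.0159). Among the libraries with Y-linked expression it was 0.16 (adjusted p = 0.872).

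Notch3 (chromosome 17, 32120820 to 32166852, minus strand) was measured at 26.1, 24.4, 33.9, 30.8 and 29.7 CPM in control mice. In nlsYAP5SA mice it stood at 19.98, 25.4, 16.9, 30.7 and 25.9 CPM and in C57BL/6 mice at 28.5, 21.4 and 32.5 CPM. The nlsYAP5SA replicates 1 and 3 were below all control mice, and the other 3 lay within the control range. The difference was -0.29 (95% interval -0.60 to 0.026, adjusted p = 0.246), a fold of 0.82. Notch3 is known as a receptor of mural cells. Of 10 mural cell markers, 3 fell (Rgs5, Kcnj8 and Higd1b) and 2 rose (Acta2 and Tagln), beside 3.44% of all genes called lower and 7.36% called higher. The median difference of these markers was -0.057, and none was at 0 in every library. Their summed level was between 270.9 and 347.5 CPM in control, 203.3 and 305.8 CPM in nlsYAP5SA and 313.1 and 347.9 CPM in C57BL/6 mice. Their part in the level of Notch3 was not tested.

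The fourth receptor of the mouse, Notch4, known from endothelial cells, had a mean of 8.33 ± 0.792 CPM in control and 8.38 ± 1.46 CPM in nlsYAP5SA mice (SD, n = 5 each), with a difference of 0.0075 (95% interval -0.25 to 0.27, adjusted p = 0.982). Its fitted sign turned negative under 10 alternatives, down to -0.29 with the Y-linked libraries alone.

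**Figure D2:**
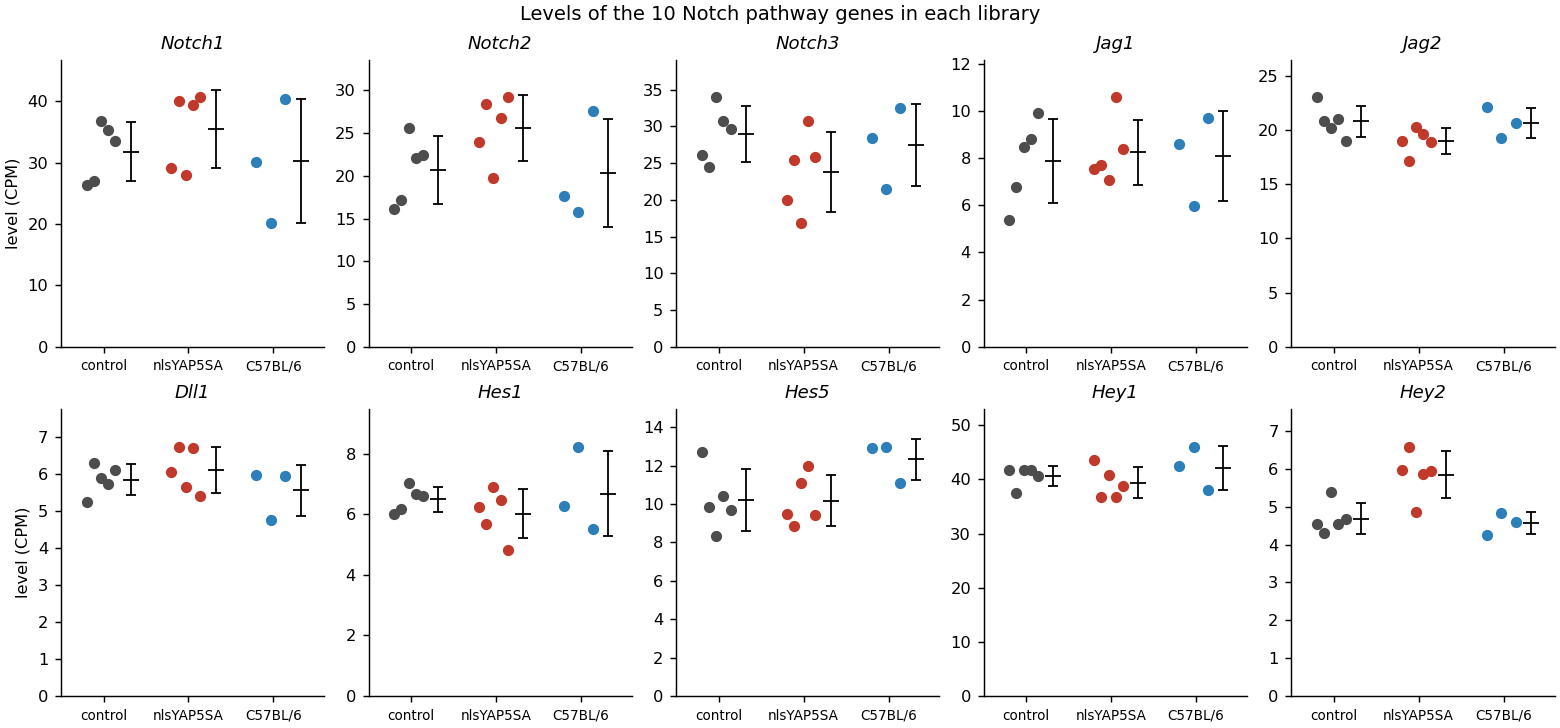
Level in CPM of the 10 genes in each library (points), with the mean and SD of each group beside them (n = 5 control, 5 nlsYAP5SA and 3 C57BL/6 mice). Control and nlsYAP5SA points overlap in every panel. For Hey2, 4 of 5 nlsYAP5SA points lie above all control points.

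None of the ligands was called. Jag1 (chromosome 2, 137081456 to 137116644, minus strand), a Jagged ligand, ranged from 5.40 to 9.92 CPM with a median of 8.46 in control, from 7.06 to 10.6 with a median of 7.72 in nlsYAP5SA and from 5.99 to 9.69 with a median of 8.61 CPM in C57BL/6 mice. The groups lay over each other, and the difference between nlsYAP5SA and control mice was 0.071 (95% interval -0.27 to 0.41, adjusted p = 0.830). Jag2 (chromosome 12, 112907819 to 112929776, minus strand), the other Jagged ligand, ranged from 19.0 to 23.0 CPM in control, 17.1 to 20.3 CPM in nlsYAP5SA and 19.2 to 22.1 CPM in C57BL/6 mice. Its difference was -0.14 (95% interval -0.29 to 0.019, adjusted p = 0.267). Dll1 (chromosome 17, 15367354 to 15376872, minus strand), the Delta ligand of neurogenic cells, ranged from 5.24 to 6.30 CPM in control, 5.39 to 6.73 CPM in nlsYAP5SA and 4.75 to 5.96 CPM in C57BL/6 mice, with a difference of 0.061 (95% interval -0.14 to 0.26, adjusted p = 0.744). The annotation sets A930024N18Rik on the opposite strand across Dll1, at 2.57 to 4.41 CPM, and since no strand setting is given the reads of the pair may not be cleanly separated. Dll3, which is known to act on Notch within the cell, stood at 2.25 ± 0.437 CPM in control and 2.15 ± 0.171 CPM in nlsYAP5SA mice (adjusted p = 0.839).

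Of the HES factors, the repressors of proneural genes, Hes1 (chromosome 16, 30064384 to 30067796, plus strand) ranged from 6.01 to 7.05 CPM in control, 4.83 to 6.89 CPM in nlsYAP5SA and 5.53 to 8.24 CPM in C57BL/6 mice. The widest spread was in C57BL/6 mice, and the nlsYAP5SA range reached below the control range. The difference from control was -0.11 (95% interval -0.33 to 0.11, adjusted p = 0.553). Hes5 (chromosome 4, 154960923 to 154962371, plus strand) ranged from 8.34 to 12.7 CPM in control, 8.85 to 12 CPM in nlsYAP5SA and 11.1 to 12.99 CPM in C57BL/6 mice. Its fitted difference was the smallest of the 10, at -0.0060 (95% interval -0.27 to 0.26, adjusted p = 0.985). Hes6, a HES family member that is known to promote neuronal differentiation, ranged from 8.09 to 15.1 CPM in control and 9.06 to 10.4 CPM in nlsYAP5SA mice (log2 -0.19, adjusted p = 0.496).

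Hey1 (chromosome 3, 8663359 to 8667256, minus strand) was the most even member, at 41.7, 37.5, 41.8, 41.6 and 40.7 CPM in control mice 1 to 5. It stood at 43.6, 36.8, 40.8, 36.8 and 38.7 CPM in nlsYAP5SA and 42.5, 46.1 and 37.9 CPM in C57BL/6 mice. The difference from control was -0.049 (95% interval -0.17 to 0.077, adjusted p = 0.654), the narrowest interval of the 10.

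Hey2 (chromosome 10, 30832359 to 30842801, minus strand) was measured at 4.54, 4.31, 5.38, 4.53 and 4.68 CPM in control mice. In nlsYAP5SA mice it stood at 5.97, 6.59, 4.85, 5.87 and 5.95 CPM and in C57BL/6 mice at 4.26, 4.84 and 4.60 CPM. Only nlsYAP5SA replicate 3 lay within the control range. It nearly met the highest C57BL/6 mouse (4.85 against 4.84 CPM), and on the scale of the test those 2 groups overlapped. The fitted level was 1.25-fold that of the controls (log2 0.32, 95% interval 0.10 to 0.54, adjusted p = 0.0694), the largest difference of the 10, and it missed the threshold. Hey2 was called without control replicate 3 (log2 0.38, adjusted p = 0.047) or without nlsYAP5SA replicate 3 (log2 0.38, adjusted p = 0.0289). With the Y-linked libraries alone it was 0.19 (adjusted p = 0.767). Heyl, the remaining HEY gene, known from vessels, stood at 10.1 ± 0.858 CPM in control and 9.39 ± 1.18 CPM in nlsYAP5SA mice (log2 -0.10, adjusted p = 0.564).

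**Figure D3:**
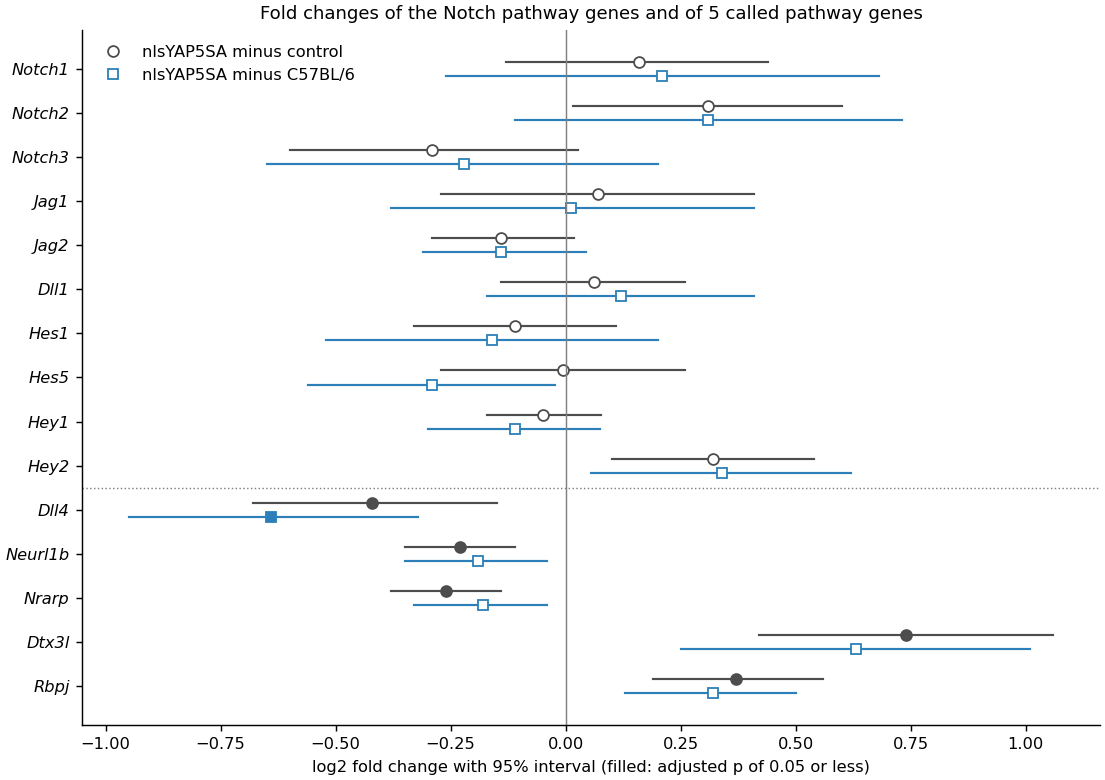
Fitted log2 fold change with its 95% interval for nlsYAP5SA minus control mice (grey circles) and nlsYAP5SA minus C57BL/6 mice (blue squares), for the 10 genes above the dotted line and 5 other pathway genes below it. Symbols are filled where the adjusted p is 0.05 or less: none of the 10 is filled, and Dll4 alone is filled in both comparisons, at -0.42 and -0.64.

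The C57BL/6 mice carried no transgene, and were compared with the controls to see whether transgene and breeding alone went with a difference. None of the 10 genes was called, beside 0.169% of 16546 genes (28 genes), the unadjusted p was above 0.05 for each, beside 3.78% of all genes at or under it, and DESeq2 also called 0. None had groups that did not overlap, beside 3.34%. Differences lay between -0.076 for Notch3 and 0.27 for Hes5 (95% interval -0.024 to 0.57, adjusted p = 1). In nlsYAP5SA against C57BL/6 mice, 6.38% of 16641 genes were called (1061 genes) and again none of the 10 by edgeR or by DESeq2. This comparison shares its nlsYAP5SA mice with the main one and so does not repeat it independently. An unadjusted p of 0.05 or less was found for Hey2 (0.34, 95% interval 0.056 to 0.62, adjusted p = 0.162) and Hes5 (-0.29, 95% interval -0.56 to -0.023, adjusted p = 0.202), beside 21% of all genes. Hey2 was at 4.26 to 4.84 CPM in C57BL/6 and 4.85 to 6.59 CPM in nlsYAP5SA mice. These ranges nearly met at nlsYAP5SA replicate 3 and were counted as overlapping on the scale of that fit, where 15.6% of all genes had groups apart. Without C57BL/6 replicate 3, Notch2 was called.

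Within a class, whether a gene differed more than another was tested on the difference of their log2 (CPM + 0.5) in each library, by an exact permutation test, two-sided, over all divisions of the 10 mice into groups of 5, with Benjamini-Hochberg adjustment over 12 pairs. Of these, 4 passed at an adjusted p of 0.0476. The receptors shifted against each other. Notch2 minus Notch3 was -0.49 ± 0.12 in control and 0.12 ± 0.18 in nlsYAP5SA mice (SD, n = 5 each), a change of 0.61 (exact p = 0.00794, the smallest this design can give). The control values lay between -0.68 and -0.39 and the nlsYAP5SA values between -0.20 and 0.26, without overlap. Notch1 minus Notch3 went from 0.13 ± 0.07 to 0.58 ± 0.14, a change of 0.45 (exact p = 0.00794), and Notch1 minus Notch2 from 0.61 ± 0.07 to 0.45 ± 0.10, a change of -0.16 (exact p = 0.0159). The groups did not overlap for Notch1 minus Notch3 (0.01 to 0.20 against 0.35 to 0.71) and overlapped for Notch1 minus Notch2 (0.51 to 0.69 against 0.28 to 0.55). So the ratio of Notch1 and of Notch2 to Notch3 within a library was higher in nlsYAP5SA mice, although no receptor was called by itself. How often pairs of other genes would pass is not given here, so the pairs have no share to stand beside. Of single genes, 24.4% had an unadjusted p of at most 0.05 in edgeR and 10.1% had groups that did not overlap.

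Among the transcription factors, Hey1 minus Hey2 was 2.99 ± 0.09 in control and 2.65 ± 0.21 in nlsYAP5SA mice, a change of -0.34 (exact p = 0.0159), with ranges that overlapped (2.85 to 3.07 against 2.40 to 2.95). Hes1 minus Hey2 changed by -0.40 (exact p = 0.0317, adjusted p = 0.0762). No pair of ligands passed, and their adjusted p lay between 0.327 and 0.897. When each library was left out in turn, the 4 changes kept their sign, at 0.56 to 0.69 for Notch2 minus Notch3, 0.42 to 0.50 for Notch1 minus Notch3, -0.19 to -0.12 for Notch1 minus Notch2 and -0.41 to -0.27 for Hey1 minus Hey2. With 9 libraries the smallest p this test gave was 0.0159. The number of pairs that passed was 4 without control replicate 3 or without nlsYAP5SA replicate 3 and 0 without any of the other 8 libraries. These were not the same pairs both times. Without nlsYAP5SA replicate 3, Hes1 minus Hey2 passed (adjusted p = 0.0476) and Notch1 minus Notch2 did not, so the latter passed only without control replicate 3. Over the 5 control and 2 nlsYAP5SA libraries with Y-linked expression the changes of Notch2 minus Notch3, Notch1 minus Notch3, Notch1 minus Notch2 and Hey1 minus Hey2 were 0.50, 0.40, -0.10 and -0.24. The exact p was 0.0952, the smallest found there, for the first and the second and 0.19 for the others.

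Notch1, Notch2, Notch3 and Jag1, the 4 members with the longest transcripts, were low or high together in several libraries, and were grouped after their values were seen. The mean of their deviations from the group mean was -0.30 (log2) in control replicate 1, -0.22 in control replicate 2, -0.33 in nlsYAP5SA replicate 3 and -0.39 in C57BL/6 replicate 2, against 0.25 in nlsYAP5SA replicate 4 and 0.37 in C57BL/6 replicate 3. In these libraries the median deviation of 928 other genes whose longest transcript has at least 8000 bases was -0.29, -0.08, -0.14, -0.29, 0.09 and 0.34. The median of 3998 genes with transcripts under 2000 bases had the opposite sign, at 0.16, 0.07, 0.08, 0.15, -0.02 and -0.17. The longest annotated transcripts of Notch1, Notch2 and Notch3 have 9488, 10500 and 8016 bases and that of Jag1 has 5612. Jag2, whose longest transcript has 5106 bases and whose summed exons (6965 bases) are longer than those of Jag1, did not share the pattern, with a deviation of 0.14 in control replicate 1 and 0.10 in nlsYAP5SA replicate 3. The longest transcripts were shorter in the HES factors, with 1468 bases for Hes1 and 1273 for Hes5. The part of transcript length in these values was not tested.

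**Figure D4:**
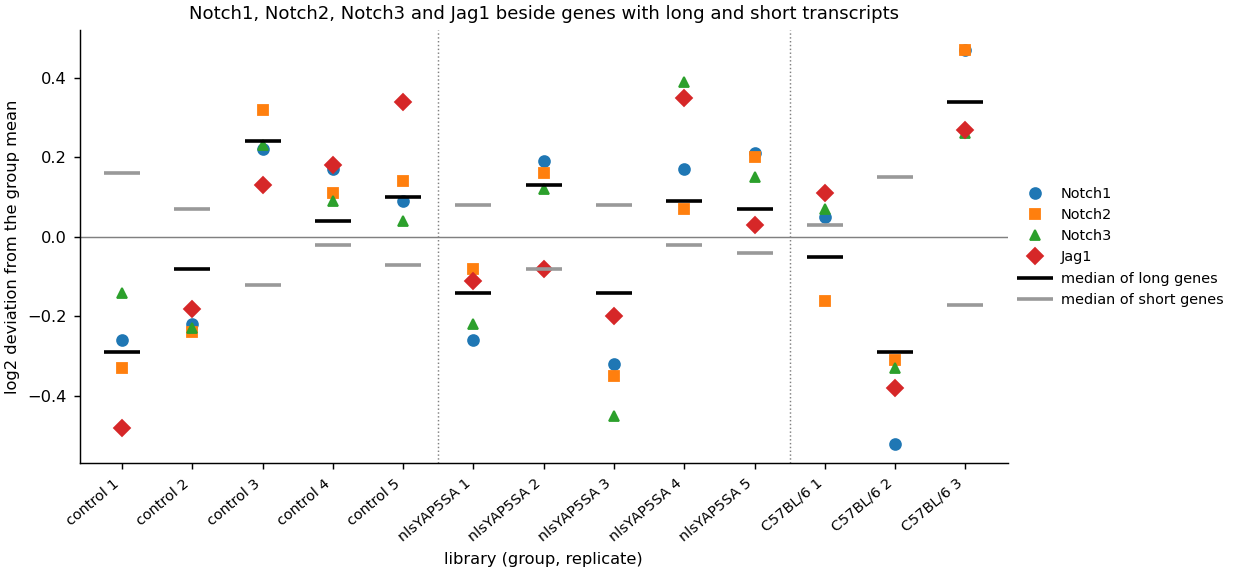
Deviation of Notch1, Notch2, Notch3 and Jag1 from their group mean (log2 of CPM + 0.5) in each of the 13 libraries, with black bars for the median of 928 genes with long transcripts and grey bars for the median of 3998 genes with short transcripts. The 4 genes lie on the side of the black bar in most libraries, as in control replicate 1 (-0.30 on average beside -0.29) and C57BL/6 replicate 3 (0.37 beside 0.34).

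The genes whose pattern over the 13 libraries was most like that of a member were taken by the root mean square difference of log2 (CPM + 0.5), each gene set to a mean of 0, among 16942 other genes. For Notch1 these were Qser1 (0.0884), Nipbl (0.0911) and Ptprt (0.0923), against a root mean square of 0.291 of Notch1 itself. For Notch2 they were Akap13 (0.0822), Cpd (0.0915) and Alms1 (0.0945), and for Notch3 Ednrb (0.105), Nid1 (0.105) and Slc7a1 (0.118). Jag1 was most like Mdc1 (0.108), Atad2 (0.113) and Nebl (0.121), Jag2 like Lrfn1 (0.0359), Ddx25 (0.0432) and Cables2 (0.0471), and Dll1 like Zfp157 (0.0505), Cggbp1 (0.0592) and Phf6 (0.0617). The genes nearest to Hes1 were Pelo (0.0840), Ing2 (0.0860) and Tmem161a (0.0867), and those nearest to Hes5 were Klhdc8b (0.104), Nit1 (0.108) and 9130221H12Rik (0.111). Hey1 was nearest to Zfp553 (0.0278), Mterf2 (0.0437) and Grik5 (0.0448). Hey2 was nearest to Ddr1 (0.0712), Pxn (0.0758) and Zcchc24 (0.0772). No member was among the 3 nearest of another member.

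The remaining genes of the pathway were read from lists of receptors, ligands, HES and HEY factors, atypical ligands, glycosylation enzymes, ubiquitin ligases of ligands, proteases, genes of inhibition and turnover, and the nuclear complex with its corepressors. Together with the 10 these lists hold 63 genes, of which 61 were tested. In nlsYAP5SA against control mice 2 rose and 3 fell, 5 of 61 beside 10.8% of all genes (7.36% higher and 3.44% lower). Their median difference was 0.015, beside -0.005 over all genes. Of the 5, a single ligand (Dll4) was lower among 5 ligands, and 1 ligase (Neurl1b) was lower among 4. Among 10 genes of inhibition and turnover Nrarp was lower and Dtx3l higher. In the nuclear complex 1 of 14 rose (Rbpj). The unadjusted p was at most 0.05 for 1 of the ligands, 2 of the ligases and 2 of the genes of inhibition and turnover. It was so for 6 of the 14 genes of the nuclear complex, of which 11 were fitted higher (median 0.13). Over the 61 pathway genes 15 had such an unadjusted p, beside 24.4% of all genes. None was called among 4 receptors, 7 tested HES and HEY factors, 3 atypical ligands, 5 glycosylation enzymes and 9 proteases, where the unadjusted p was at most 0.05 for 1, 1, 0, 1 and 1 of them. DESeq2 called Lfng among the glycosylation enzymes and Ncstn among the proteases besides the same 5.

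Rbpj (chromosome 5, 53466152 to 53657362, plus strand) encodes the DNA-binding partner of the cleaved receptor. It stood at 26.3, 31.3, 36.0, 33.0 and 36.6 CPM in control mice, at 41.0, 46.8, 39.3, 41.6 and 42.9 CPM in nlsYAP5SA mice, and at 33.2, 31.0 and 36.7 CPM in C57BL/6 mice. All 5 nlsYAP5SA mice were above all mice of the other groups. The level was 1.3-fold that of the controls (log2 0.37, 95% interval 0.19 to 0.56, adjusted p = 0.0126) and 0.32 higher on the log2 scale than in C57BL/6 mice (adjusted p = 0.0514). The processed pseudogene Rbpj-ps3 was counted at up to 1.46 CPM.

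Nrarp (chromosome 2, 25180758 to 25183339, plus strand), a target gene and feedback inhibitor of Notch, was measured at 38.8, 39.9, 39.8, 41.9 and 36.4 CPM in control mice and at 31.1, 34.8, 31.7, 32.5 and 33.9 CPM in nlsYAP5SA mice. In C57BL/6 mice it stood at 36.6, 36.9 and 37.2 CPM. Every nlsYAP5SA mouse was below every control mouse, with a fold of 0.833 (log2 -0.26, 95% interval -0.38 to -0.14, adjusted p = 0.00791). Against C57BL/6 mice the difference was -0.18 (adjusted p = 0.135). Gm38287 overlaps Nrarp on the opposite strand, at 0 to 7.96 CPM. Without a known strand setting the reads of this pair may not be cleanly separated either.

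Dtx3l (chromosome 16, 35926511 to 35939151, minus strand), a relative of the Deltex ubiquitin ligases, was 1.67-fold higher in nlsYAP5SA mice (log2 0.74, 95% interval 0.42 to 1.06, adjusted p = 0.00612). It ranged from 3.23 to 4.75 CPM in control, 5.20 to 8.43 CPM in nlsYAP5SA and 3.83 to 4.98 CPM in C57BL/6 mice. The nlsYAP5SA range lay above both other ranges, and the difference from C57BL/6 mice was 0.63 (adjusted p = 0.0567). Parp9, which overlaps Dtx3l on the opposite strand, was also higher, by 0.84 (adjusted p = 0.00229), and the reads of the pair may not be cleanly separated without a known strand setting.

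Dll4 (chromosome 2, 119325784 to 119335962, plus strand), a ligand known from endothelial cells, stood at 4.95, 4.58, 5.59, 5.92 and 5.20 CPM in control mice. It was at 3.98, 4.80, 3.73, 4.0 and 3.14 CPM in nlsYAP5SA mice and at 6.50, 5.65 and 5.97 CPM in C57BL/6 mice. Only nlsYAP5SA replicate 2 reached the control range, and the fold was 0.749 (log2 -0.42, 95% interval -0.68 to -0.15, adjusted p = 0.0448). Against C57BL/6 mice, with no overlap, the difference was -0.64 (adjusted p = 0.0285), a call that was lost with the replicate block and without nlsYAP5SA replicate 1, 3 or 5 or C57BL/6 replicate 1 or 2. Of 10 endothelial markers 3 fell (Cldn5, Cdh5 and Tie1) and none rose, beside 3.44% of all genes called lower. Of these markers 8 were fitted lower, 8 had an unadjusted p at or under 0.05 (24.4% of all genes) and the median difference was -0.24. Their summed level was between 257 and 299.8 CPM in control, 223.8 and 282.9 CPM in nlsYAP5SA and 280.7 and 299.4 CPM in C57BL/6 mice, and none was at 0 in every library. The part of endothelial cells in the level of Dll4 was not tested. The call was lost when any library other than control replicate 2 or nlsYAP5SA replicate 2 was left out (adjusted p up to 0.116), and also with library size alone, without a filter, with the replicate block and with the Ttr covariate. Dll4 was called under 7 of 22 alternatives.

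Neurl1b (chromosome 17, 26414829 to 26446349, plus strand), a ubiquitin ligase of Notch ligands, ranged from 96.5 to 108.7 CPM in control, 82.2 to 96.5 CPM in nlsYAP5SA and 95.2 to 106.0 CPM in C57BL/6 mice. On the scale of the test the control and nlsYAP5SA ranges did not overlap, and they nearly met at nlsYAP5SA replicate 4. The fold was 0.852 (log2 -0.23, 95% interval -0.35 to -0.11, adjusted p = 0.0157). Leaving out control replicate 4, nlsYAP5SA replicate 1 or nlsYAP5SA replicate 2 ended the call (adjusted p up to 0.0548). Against C57BL/6 mice the difference was -0.19 (adjusted p = 0.14).

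**Figure D5:**
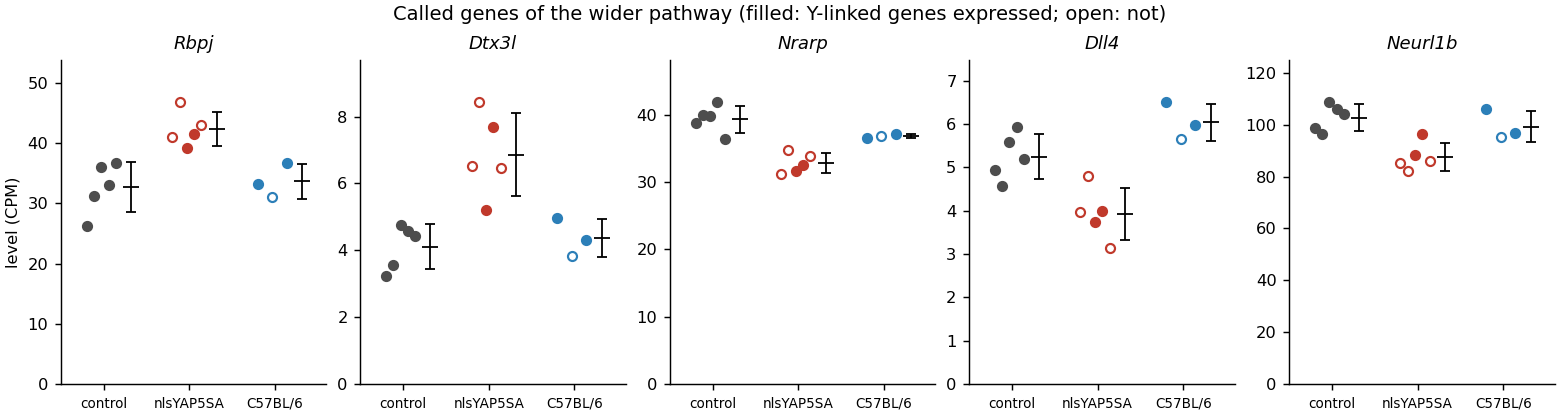
Level in CPM of Rbpj, Dtx3l, Nrarp, Dll4 and Neurl1b in each library, with group mean and SD (n = 5 control, 5 nlsYAP5SA and 3 C57BL/6 mice). Filled points are libraries with Y-linked expression and open points those without it: all 5 control points are filled, and 2 of 5 nlsYAP5SA points are.

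The Y-linked genes moved with the groups, and so touch all of these results. With their summed level as a covariate, 539 genes were called in place of 1761, and none of the 61 pathway genes was among them. Over the 5 control and 2 nlsYAP5SA libraries with Y-linked expression, 334 genes were called and again none of the pathway. The differences of the 5 genes kept their sign there, at 0.30 for Rbpj (adjusted p = 0.37), -0.30 for Nrarp (adjusted p = 0.105), 0.64 for Dtx3l (adjusted p = 0.204), -0.45 for Dll4 (adjusted p = 0.239) and -0.16 for Neurl1b (adjusted p = 0.549). The level of CT010467.1 also differed between libraries, with 2.44% of counts in control replicate 4 and 2.91% in nlsYAP5SA replicate 1 against 6.88% to 9.74% in the other control and nlsYAP5SA libraries. Without these 2 libraries 944 genes were called, and Dtx3l alone of the pathway (log2 0.78, adjusted p = 0.0294).

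Some markers of cell types in which the pathway is known to act differed between the groups, while the summed levels of the astrocyte and the radial glia lists overlapped between control and nlsYAP5SA mice. Of 10 astrocyte markers 4 rose (Slc1a3, Gja1, Aldoc and Gfap) and none fell, 7 had an unadjusted p at or under 0.05, and all 10 were fitted higher (median 0.30), with a summed level of 3515 to 6111 CPM in control, 5467 to 7604 CPM in nlsYAP5SA and 4666 to 6230 CPM in C57BL/6 mice. Of 8 radial glia and neural stem cell markers 4 rose (Vim, Pax6, Hopx and Prom1) and none fell, 5 had such an unadjusted p, and 6 were fitted higher (median 0.32), at 391 to 500.9, 412.2 to 632 and 328.7 to 464.5 CPM in the same order. Of 8 microglial markers 7 rose (median 0.72), and their summed level was 308.9 to 387.7 CPM in control, 452.9 to 605.1 CPM in nlsYAP5SA and 331.8 to 389.7 CPM in C57BL/6 mice. Over all genes 7.36% were called higher, 3.44% lower, and 24.4% had an unadjusted p at or under 0.05. No marker of these lists was at 0 in every library. The part of these cells in the levels of Notch1, Notch2, Hes1, Hes5 and Hey1 was not tested.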

How the data were processed

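RNA of 13 mice was analysed as 1 library per mouse, grouped by the labels. The authors trimmed reads with CutAdapt 1.5, mapped them with STAR (2.2.2a in the submitters' processing notes, another version in the methods) to GRCm38 and deposited expected counts per gene from RSEM 1.3.0, without normalization. No strand setting is given in the sources used here. Names were found for 48349 of 48795 identifiers, and positions and exon lengths come from GENCODE M21. Expected counts were rounded, scaled by TMM, filtered with filterByExpr (minimum count 10, minimum total 15) and tested with edgeR 4.0.16 in R 4.3.3, two-sided, between the groups compared. Alternatives were DESeq2 1.42.0, other scalings and filters, all samples in a single fit, replicate blocks, covariates, a GC and length offset and leaving out each library. Leaving out the libraries low in CT010467.1, and keeping those with Y-linked expression alone (also for pairs of members), were added after seeing the data. The edgeR test was tried on simulated data, where log2 changes of 1 were recovered in 97 of 100 genes and of 0.5 in 69 of 100. Smaller changes were not simulated. A further list of pathway-related genes is not reported here. Named genes were the members, other pathway genes called in the main comparison, Notch4, Dll3, Dll4, Heyl, Hes6 and Rbpj, 5 label checks and the 3 nearest patterns of each member. The members and lists were chosen with earlier results of these data known. Littermates came from a pair of matings that the labels do not assign, so p-values take mice as independent. Counts are reads, not molecules.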

Additional observations from a re-analysis of the deposited data

Results flagged for a closer look

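Hey1 in control replicate 2 stood apart from its group, at 37.54 CPM beside 40.67 to 41.81 CPM in the other control mice. Its gap was 0.733 of the group's range, above Dixon's 95% critical value for 5 samples. It was 1 of 38 groups of 5 libraries examined, and chance alone gives about 1 in 20. Groups of 3 were not examined.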

How the results depend on the processing

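In nlsYAP5SA against control mice, the 1761 calls fell to 539 with the Y-linked covariate, to 334 in the Y-linked libraries alone and to 944 without the libraries low in CT010467.1. Of the members, 1 was called with the GC and length offset (Notch2), and between 0 and 1 when each replicate was left out (Hey2, without control replicate 3 or nlsYAP5SA replicate 3). Across the alternatives run in this comparison, 203 of 220 member values kept their sign and their side of the threshold. The 14 that changed sign were of Jag1, Hes1 and Hes5. Hes1 turned to 0.037 with the Y-linked covariate and 0.034 in the Y-linked libraries. Hes5 turned to 0.0018 with at least 10 counts in every sample, 0.16 and 0.17 in those Y-linked settings, 0.013 without the libraries low in CT010467.1 and 0.12 with the GC and length offset, and lay between -0.074 and 0.091 with each replicate left out. In the same way Jag1 lay between -0.036 and 0.16, Notch4 between -0.063 and 0.078, and Dll3 between -0.14 and 0.04. Notch4 also turned to -0.27 and -0.29 in the Y-linked settings, -0.02 with the Ttr covariate and -0.0087 without the libraries low in CT010467.1, and Dll3 to 0.021 with the GC and length offset. The causes were not tested.

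The control and nlsYAP5SA mice share replicate numbers, and the labels do not say whether these mark pairs. Deviations of same-numbered mice correlated between -0.33 and 0.33, which does not settle it. With the replicate number as a block 1239 genes and none of the members were called, and Notch4 turned to -0.0029. In C57BL/6 against control mice the block gave 15 calls and 0.032 for Notch2, and in nlsYAP5SA against C57BL/6 mice 26 calls and -0.10 for Jag1.

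In C57BL/6 against control mice, 28 calls became 16 with at least 10 counts in every sample, 59 with DESeq2 and 44 with all samples in a single fit. With each replicate left out, Notch1 ranged from -0.35 to 0.15, Notch2 from -0.32 to 0.13, Notch3 from -0.23 to 0.074, Jag1 from -0.12 to 0.22, Jag2 from -0.065 to 0.037, Dll1 from -0.14 to 0.026, Hes1 from -0.14 to 0.14, Hey1 from -0.016 to 0.11 and Hey2 from -0.079 to 0.017. In nlsYAP5SA against C57BL/6 mice, 1061 calls became 1596 with DESeq2 and 401 (without C57BL/6 replicate 1) to 1757 (without C57BL/6 replicate 3) with each replicate left out. There 0 to 1 members were called (Notch2, without C57BL/6 replicate 3), Jag1 ranged from -0.15 to 0.17 and Hes1 from -0.28 to 0.033. Of the 12 pairs within a class, 0 to 4 passed with each replicate left out.

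Among control and nlsYAP5SA mice the lowest library holds 99 counts of Hey2, 115 of Dll1 and 103 of Hes1. Yet in this comparison their standard errors (0.10, 0.094 and 0.10 on the log2 scale) were below those of the more deeply counted Notch1, Notch2 and Notch3 (0.13, 0.13 and 0.14). Comparisons with C57BL/6 mice are limited by their 3 libraries.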

Other observations

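In nlsYAP5SA against C57BL/6 mice, Hes7, a HES gene known from somite segmentation, was the only gene of the pathway called besides Dll4, and is named here after its value was seen. It stood at 0.994, 0.471, 0.650, 0.522 and 0.609 CPM in nlsYAP5SA mice and at 0.269, 0.192 and 0.242 CPM in C57BL/6 mice, a difference of 1.43 (edgeR, adjusted p = 0.0467) that rests on 4 to 22 counts in a library. The call was lost when any of the 8 libraries was left out, with library size alone, without a filter, with at least 10 counts in every sample, with the replicate block and with DESeq2, which called Dtx3l and Rbpj beside Dll4. In control mice it was at 0.532, 0.274, 0.250, 0.504 and 0.708 CPM, which overlaps both other groups.

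Of the remaining marker lists in nlsYAP5SA against control mice, 2 of 8 ependymal genes rose (Foxj1 and Spag17), with 4 at an unadjusted p of at most 0.05 and a median difference of 0.62. Of 8 choroid plexus genes 1 rose (Folr1), with 3 at that unadjusted p and a median of 0.77. In C57BL/6 against control mice all 8 were also fitted higher (median 0.44) and none was called by edgeR, with 0 at that unadjusted p. Libraries differed widely in these genes, whose summed level ran from 11.59 to 237.5 CPM within the control mice, with Ttr from 0.822 to 217 CPM. Of 7 genes of oligodendrocyte precursors 2 fell, with 5 at that unadjusted p and a median of -0.22. In oligodendrocytes 1 of 8 genes fell (Ermn), while 7 had that unadjusted p and all 8 were fitted below 0, from -0.88 to -0.35 with a median of -0.54. In excitatory neurons 1 of 8 genes fell (Neurod6), with 3 at that unadjusted p and a median of -0.11. The paper lists NEX-Cre as an allele of Neurod6 itself, and nlsYAP5SA mice carried it while control mice did not. So for Neurod6 the Cre allele and active YAP1 cannot be told apart. Among 7 fibroblast genes 2 rose (Col1a2 and Aldh1a2) and 1 fell (Lum), with 5 at that unadjusted p and a median of 0.036. None of 8 interneuron genes was called by edgeR, with 3 at that unadjusted p and a median of 0.074. Over all genes the median was -0.005, 7.36% were called higher and 3.44% lower, and 24.4% had that unadjusted p.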
